A study of Mus musculus with 2 samples.

Results

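Basement membranes are thin sheets of matrix that wrap muscle fibres, capillaries and nerves and separate them from the interstitium. They are built from a laminin polymer and a network of type IV collagen, which nidogens and the proteoglycan perlecan hold together. In muscle, the laminin chain encoded by Lama2 binds dystroglycan on the fibre surface, the matrix side of the complex that lacks dystrophin in mdx mice. Muscle stem cells (MuSCs) lie between this sheet and the fibre.

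The genes described here were 10 structural genes of the basement membrane, chosen by symbol from the 24984 gene symbols of the count tables: Col4a1, Col4a2, Col15a1, Col18a1, Lama2, Lama4, Lamb1, Lamc1, Nid1 and Hspg2. They were read in droplet-based single-cell RNA-seq of sorted live cells from the hind limb muscle of mdx mice, in 1 Ctrl library and 1 dKO library. Mice of both groups carried the mdx mutation, a tamoxifen-inducible Cre driven by Pax7 and a YFP reporter, and both received tamoxifen at 1.5 months of age. The Ctrl mice had intact Yy1 alleles and the dKO mice floxed ones, so that Yy1, a zinc-finger transcription factor, was deleted in MuSCs. Muscles were taken 1 month later, and cells of 3 mice were pooled for each library. GEO's treatment label reads "no treatment" for Ctrl and "YY1 dKO" for dKO. The Cre acts in Pax7-expressing cells, so fibro-adipogenic progenitors (FAPs), endothelial cells (ECs) and other niche cells of dKO mice kept Yy1.

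With 1 library per group and the mice pooled, no difference between Ctrl and dKO has a replicate check, and no test or p-value is given. Each level below is the sum of a gene's unique molecular identifiers (UMIs) over the cells of a class divided by all UMIs of that class and scaled to 1000000 (CPM), with a 95% exact Poisson interval. Log2 ratios compare dKO with Ctrl and carry an exact conditional binomial interval. All intervals cover counting error only, not the variation between mice or between library preparations. A gene was called lower in dKO when its dKO level was 0.8 times its Ctrl level or less, and higher when its Ctrl level was 0.8 times its dKO level or less, given at least 200 UMIs over both libraries in the class. Genes differ in length and capture, so levels were compared across classes and libraries and not between genes.

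After filtering, 4010 Ctrl and 3079 dKO cells remained, in 22 clusters. The classes described were FAP-like cells (1139 in Ctrl, 1187 in dKO), EC-like cells (464 and 179), cells with both smooth muscle and pericyte markers (SMC/pericyte-like, 107 and 38), tenocyte-like cells (142 and 90) and MuSC-like cells (118 and 30). Monocyte- and macrophage-like (MO/MP-like) cells were the most numerous in Ctrl, with 1520 cells there and 1165 in dKO. The MuSC-like cluster was led by Mymx, Myog and Gal, of which Mymx and Myog are genes of differentiating myogenic cells, with Myog at 766 and 926 CPM beside the stem cell gene Pax7 at 56.7 and 50.1 CPM. The target gene followed the labels: Yy1 stood at 159.6 CPM in Ctrl and at 4.85 CPM in dKO MuSC-like cells, where 3 UMIs were counted, all in 1 cell. In FAP-like cells Yy1 was at 124 and 133 CPM, and in EC-like cells at 267 and 265 CPM. The libraries shared 7 cell barcodes.

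FAP-like cells were the main holders of these transcripts. In Ctrl they held 72.9% of the UMIs of the 10 genes, against 39.4% of all UMIs, and in dKO 88.7% against 54.8%. EC-like cells held 15.6% in Ctrl and 5.11% in dKO, against 6.50% and 2.87% of all UMIs. The share held by FAP-like cells was thus 15.8 percentage points higher in dKO (counting interval 15.4 to 16.2), and that of EC-like cells 10.5 points lower (-10.8 to -10.2). These shares move with the number of cells of a class as well as with the level in each cell: FAP-like cells were 28.4% of Ctrl and 38.5% of dKO cells, and EC-like cells 11.6% and 5.81%. Whether the numbers of captured cells follow those in the muscle was not tested. Among the genes, FAP-like cells held from 60.1% (Col18a1) to 89.1% (Lama2) of the UMIs in Ctrl, and from 75.2% to 94.9% (Nid1) in dKO.

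**Figure D1:**
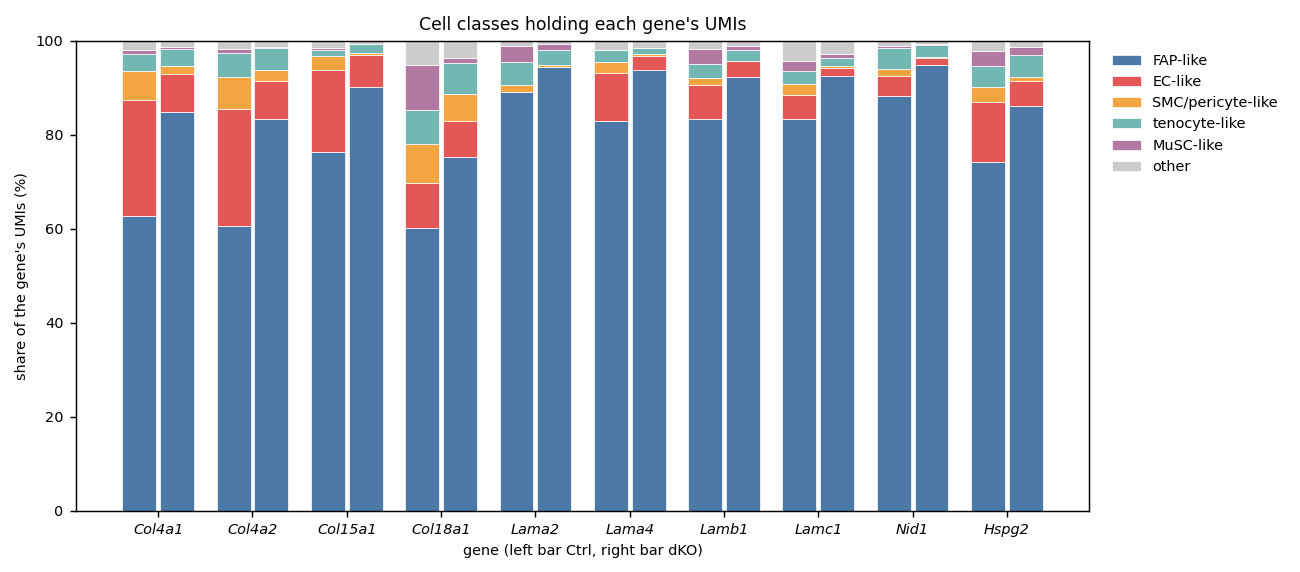
Share (%, vertical axis) of each gene's UMIs held by the cell classes, stacked, with the Ctrl library as the left and the dKO library as the right bar of each pair. FAP-like cells held most UMIs of every gene in both libraries, and the EC-like part of Col4a1 was 24.6% in Ctrl and 8.08% in dKO.

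Col4a1 and Col4a2 encode the alpha1 and alpha2 chains of type IV collagen, which assemble into the trimer found in nearly all basement membranes. The genes lie head to head on chromosome 8 (GRCm38), Col4a1 on the minus strand at chr8:11198423-11312826 and Col4a2 on the plus strand at chr8:11312805-11449287, so that their annotated 5′ ends overlap by 22 bases. From this region, the 30 bases at chr8:11312768-11312797 (plus strand, GRCm38.p6) are shown, with a CCAAT motif in capitals, because they lie inside the 5′ end of Col4a1 and just before the start of Col4a2. The motif begins 32 bases before the start of Col4a2.
Col4a1 and Col4a2 shared 5′ region: gctccCCAATttgttggcgctgccccctcc

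Both chains were lower in dKO in the cells that carry them most. In EC-like cells Col4a1 was at 2879 CPM in Ctrl (2814 to 2944) against 1674 CPM in dKO (1589 to 1762), a log2 ratio of -0.78 (-0.86 to -0.70). FAP-like cells had 1210 CPM (1193 to 1227) and 919 CPM (904 to 933), a log2 ratio of -0.40. SMC/pericyte-like cells had 2353 CPM in Ctrl and 1274 CPM in dKO (-0.88, from -1.07 to -0.71). The intervals of the libraries did not overlap in any of these 3 classes. In tenocyte-like cells, by contrast, Col4a1 was at 757 CPM (714 to 802) and 765 CPM (708.5 to 825), and the intervals overlapped. MuSC-like cells had 110 CPM in Ctrl and 98.6 CPM in dKO, and there too the intervals overlapped. Col4a2 took the same course, with 1312 and 730 CPM in EC-like cells (-0.85), 525 and 394 CPM in FAP-like cells (-0.41), 1138 and 769 CPM in SMC/pericyte-like cells (-0.57) and 477 and 417.5 CPM in tenocyte-like cells (-0.19). Of the 5 classes, each chain was highest in EC-like cells in both libraries, with the exception of Col4a2 in dKO, where 769 CPM (660 to 891) in SMC/pericyte-like and 730 CPM (674 to 789) in EC-like cells could not be told apart. Immune cells had low values: MO/MP-like cells had Col4a1 at 25.8 CPM in Ctrl and 9.32 CPM in dKO, and B cell-like cells at 5.48 and 3.87 CPM. Of the Ctrl UMIs in MO/MP-like cells, 17.9% came from 1 cell.

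The balance of the paired chains was much steadier than their level. Col4a1 gave 69.7% (69.2 to 70.3; 95% exact binomial interval) of the UMIs of the pair in Ctrl FAP-like cells and 69.98% (69.4 to 70.6) in dKO. In EC-like cells the shares were 68.7% (67.8 to 69.6) and 69.6% (67.6 to 71.6). MuSC-like cells, with a level of Col4a1 more than 10 times below that of FAP-like cells in Ctrl, gave 70.8% (65.7 to 75.4) and 71.8% (61.0 to 81.0). Tenocyte-like cells stood lower, at 61.4% (59.1 to 63.6) in Ctrl and 64.7% (61.7 to 67.6) in dKO, and so did SMC/pericyte-like cells of dKO, at 62.4% (57.8 to 66.7), against 67.4% (65.7 to 69.1) in Ctrl. The share is one of UMIs and depends on how each transcript is captured, so it is no ratio of chains.

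**Figure D2:**
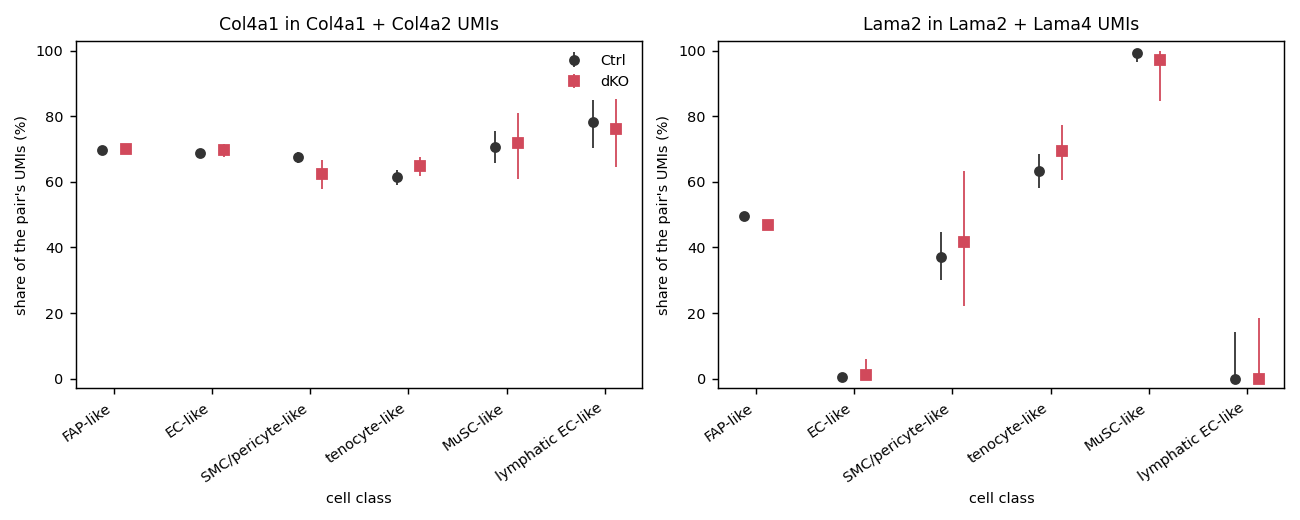
Share (%) of Col4a1 in the UMIs of Col4a1 and Col4a2 (left) and of Lama2 in those of Lama2 and Lama4 (right) by cell class, with Ctrl as circles, dKO as squares and 95% exact binomial intervals as bars. The Col4a1 share stayed between 61.4% and 78.3% in the 6 classes shown, whereas that of Lama2 ran from near 0 in EC-like to above 97.0% in MuSC-like cells.

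Col15a1 and Col18a1 encode the multiplexins, collagens with long non-collagenous ends that sit at the border between basement membrane and interstitium. The C-terminal end of collagen XVIII is the precursor of endostatin. Col15a1 (chr4:47208161-47313167, plus strand) was at 385 CPM in Ctrl (375 to 394) against 232 CPM in dKO (225 to 240) FAP-like cells, a log2 ratio of -0.73 (-0.79 to -0.67). In EC-like cells it was at 537 CPM (509 to 565) and 332 CPM (294 to 372), a log2 ratio of -0.69 (-0.88 to -0.51). It was lower in dKO in both, with no overlap. In SMC/pericyte-like cells it was at 286 and 69.1 CPM, but the latter rests on 16 UMIs, 43.8% of them from 1 cell. Only tenocyte-like cells stood the other way among the 5 classes, at 67.8 CPM in Ctrl (55.4 to 82.2) against 94.8 CPM in dKO (75.6 to 117), below 200 UMIs in all and with 26.2% of the dKO UMIs from 1 cell. MuSC-like cells had 47 Col15a1 UMIs in Ctrl (20.3 CPM) and 0 in dKO, where the upper bound was 5.96 CPM.

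Col18a1 (chr10:77052178-77166548, minus strand) was called lower in some classes and higher in others. It was at 107 CPM in Ctrl (102 to 112) against 69.4 CPM in dKO (65.4 to 73.5) FAP-like cells, a log2 ratio of -0.63. In EC-like cells it was higher in dKO, with 105 CPM (93.2 to 118) and 138 CPM (114 to 165), a log2 ratio of 0.39 (0.07 to 0.70). SMC/pericyte-like cells also had more in dKO, 290 CPM (254 to 329) and 384.5 CPM (309 to 473), a log2 ratio of 0.41 (0.04 to 0.77). In both of these classes the intervals of the libraries overlapped. When the 3 EC-like clusters were weighted as in Ctrl, by their total UMIs there, the log2 ratio in EC-like cells was -0.13. When no doublets were removed, that in SMC/pericyte-like cells was -0.10. The difference was most marked in MuSC-like cells, with 119 CPM in Ctrl (105 to 134; 275 UMIs) against 22.6 CPM in dKO (12.4 to 38.0; 14 UMIs), a log2 ratio of -2.39 (-3.29 to -1.62). Of its Ctrl UMIs there, 11.3% came from 1 cell. In lymphatic EC-like cells, a class of 17 Ctrl and 13 dKO cells, it was at 606 CPM (461 to 781) and 234.5 CPM (131 to 387) on 59 and 15 UMIs, and the Ctrl value was above that in each of the 5 classes of Ctrl.

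**Figure D3:**
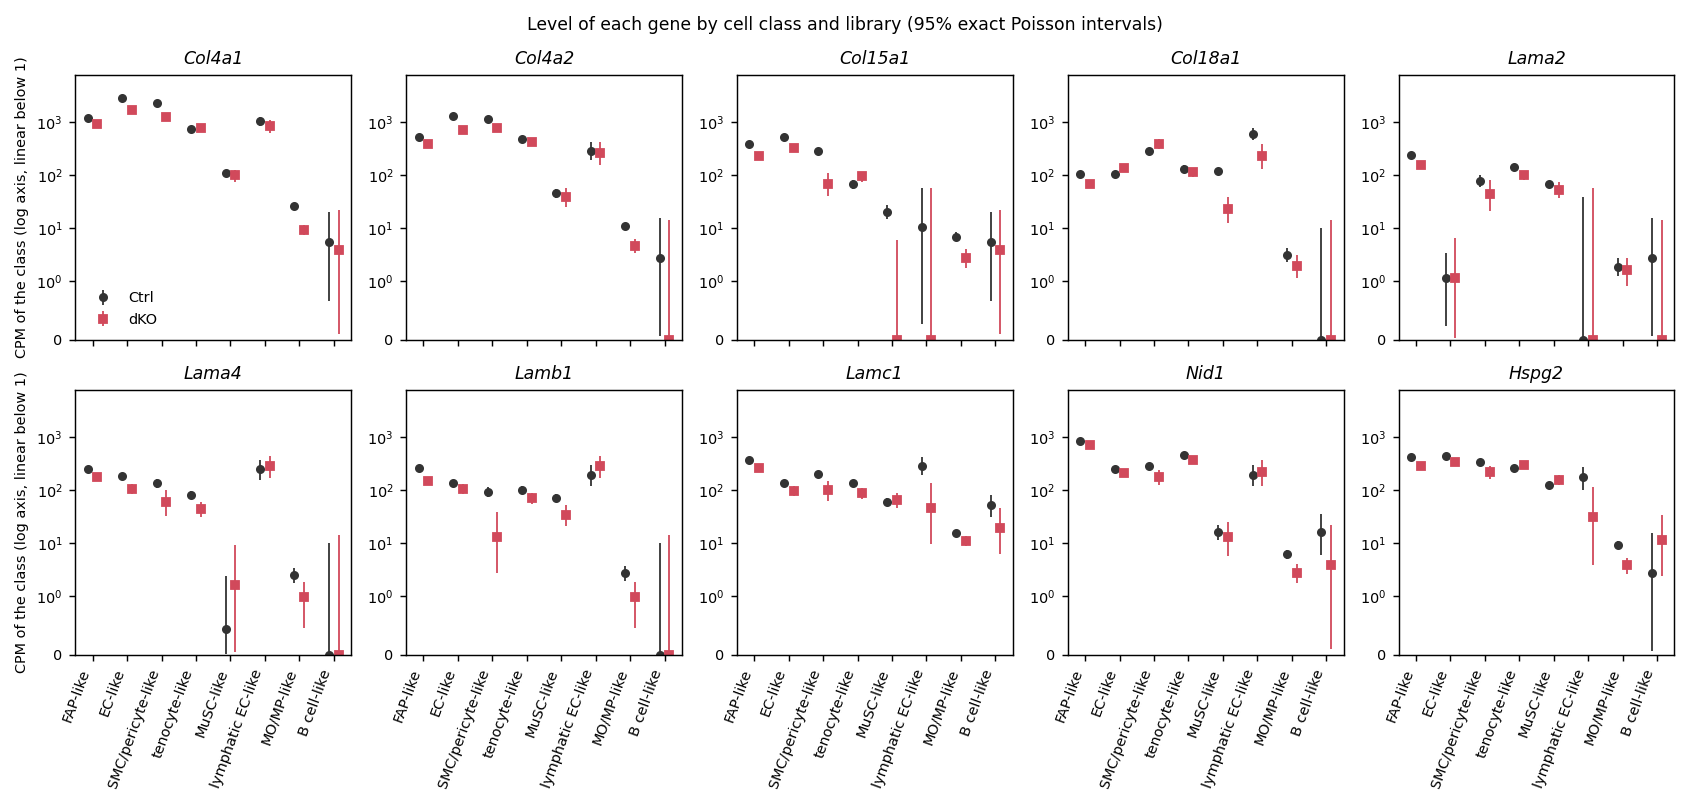
Level of each gene (CPM on a log axis, linear below 1) in 8 cell classes, with Ctrl as circles, dKO as squares and 95% exact Poisson intervals as bars. Lama2 was near 1 CPM in EC-like and Lama4 near 1 CPM in MuSC-like cells, while B cell-like and MO/MP-like cells had low values of nearly all 10 genes.

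Laminins are trimers of an alpha, a beta and a gamma chain, and the alpha chain sets which receptors they bind. Lama2 (chr10:26980036-27619758, minus strand) encodes the alpha2 chain of the main muscle laminin, and Lama4 (chr10:38965515-39110188, plus strand) the alpha4 chain of vessel and interstitial laminins. Their distribution over the classes was unlike. In FAP-like cells both were present, Lama2 at 246 CPM in Ctrl (238 to 254) against 156.5 CPM in dKO (151 to 163), and Lama4 at 251 CPM (243 to 259) and 178 CPM (172 to 185). Log2 ratios were -0.65 for Lama2 and -0.49 for Lama4, with no overlap of intervals. EC-like cells had Lama4 at 188 CPM in Ctrl and 106 CPM in dKO (-0.83, from -1.17 to -0.51), and hardly any Lama2, with 3 and 1 UMIs. MuSC-like cells showed the reverse, with Lama2 at 66.6 and 53.3 CPM, whose intervals overlapped, and 1 Lama4 UMI in each library. Lama2 thus gave 0.599% of the UMIs of the pair in Ctrl EC-like cells, 49.5% in FAP-like, 63.4% in tenocyte-like and 99.4% in MuSC-like cells. In dKO these shares were 1.08%, 46.7%, 69.3% and 97.1%. The Lama2 share of FAP-like cells was lower in dKO (45.4 to 48.0, against 48.4 to 50.6), while those of the other 3 classes overlapped between the libraries. This did not hold in each FAP-like cluster. The log2 ratio of Lama2 was below that of Lama4 in those with Inmt (-0.80, against -0.52) and Pi16 (-0.38, against -0.07). It was above in those with Postn (-0.47, against -0.55) and Cxcl5 (-0.45, against -0.65). The intervals of the 2 ratios overlapped in all but the cluster with Inmt.

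Lamb1 (chr12:31265234-31329644, plus strand) and Lamc1 (chr1:153218922-153332786, minus strand) encode the beta1 and gamma1 chains that most muscle and vessel laminins share. Of the 10 genes, Lamb1 had the lowest ratio in FAP-like cells, with 265 CPM in Ctrl (257 to 273) against 150.5 CPM in dKO (145 to 156.5), a log2 ratio of -0.82 (-0.89 to -0.75). In EC-like cells it was at 138 CPM (124.5 to 153) and 104 CPM (84.1 to 128), so that the intervals overlapped, and in MuSC-like cells at 71.8 CPM (61.3 to 83.6) and 33.9 CPM (21.01 to 51.9), with 21 dKO UMIs. Lamc1 was at 367 CPM (358 to 377) and 266 CPM (258 to 274) in FAP-like cells, a log2 ratio of -0.46. EC-like cells had Lamc1 at 139 and 97.5 CPM (-0.51, from -0.87 to -0.16). MuSC-like cells had it at 60.6 CPM (50.9 to 71.5) and 64.6 CPM (46.2 to 88.0), with overlapping intervals. B cell-like cells gave 19 Lamc1 UMIs in Ctrl (52.1 CPM) and 5 in dKO (19.3 CPM).

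Nid1 (chr13:13437551-13512269, plus strand) encodes nidogen-1, which links laminin to collagen IV. It was the least different gene in FAP-like cells and the only one there not called, with 843 CPM in Ctrl (829 to 857) against 726.5 CPM in dKO (714 to 740), a log2 ratio of -0.21 (-0.25 to -0.18). In EC-like cells it was at 255 CPM (236 to 275) and 206.5 CPM (177 to 239), and in tenocyte-like cells at 454 CPM (421 to 489.5) and 369 CPM (330 to 411). Nid1 was thus highest in FAP-like cells and lowest, of the 5 classes, in MuSC-like cells, at 16.0 and 12.9 CPM. Hspg2 (chr4:137468769-137570630, plus strand) encodes perlecan, the heparan sulfate proteoglycan that binds growth factors in the sheet. FAP-like cells had 415 CPM in Ctrl (405 to 425) against 288 CPM in dKO (280 to 296), a log2 ratio of -0.53. In Ctrl this did not differ from EC-like cells beyond counting error (438 CPM, 413.5 to 464), which were at 337 CPM (300 to 378) in dKO. Hspg2 was not lower in dKO in tenocyte-like cells (265 and 298 CPM) or in MuSC-like cells (127 and 155 CPM), where the intervals overlapped.

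Counted over the 10 genes, 9 were called lower in dKO FAP-like cells and 0 higher. Of all 9080 genes with enough UMIs in this class, 10.6% were called lower and 7.5% higher. At 1.5-fold, 4 of the 10 were lower (Col15a1, Col18a1, Lama2 and Lamb1) and 0 higher, against 1.99% and 2.44% of all genes. The median log2 ratio of the 10 was -0.51 and that of all genes -0.05. Summed, the 10 genes stood at 4614 CPM in Ctrl (4581 to 4648) against 3380 CPM in dKO (3353 to 3409), a log2 ratio of -0.45, a sum in which Col4a1 and Nid1 weigh most. Of the markers of the class itself, Dcn was at 8466 and 8705 CPM and Pdgfra at 337 and 302 CPM, and the 11 FAP markers summed to 41250 and 37013 CPM. That sum includes the fibrillar collagen genes Col1a1 (6618 and 4753 CPM) and Col3a1 (14588 and 11100 CPM), which were themselves lower in dKO. The 11 EC markers summed to 24.1 CPM in Ctrl and 9.48 CPM in dKO FAP-like cells, against 10760 CPM in Ctrl EC-like cells, and none of them was at 0 in either library.

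**Figure D4:**
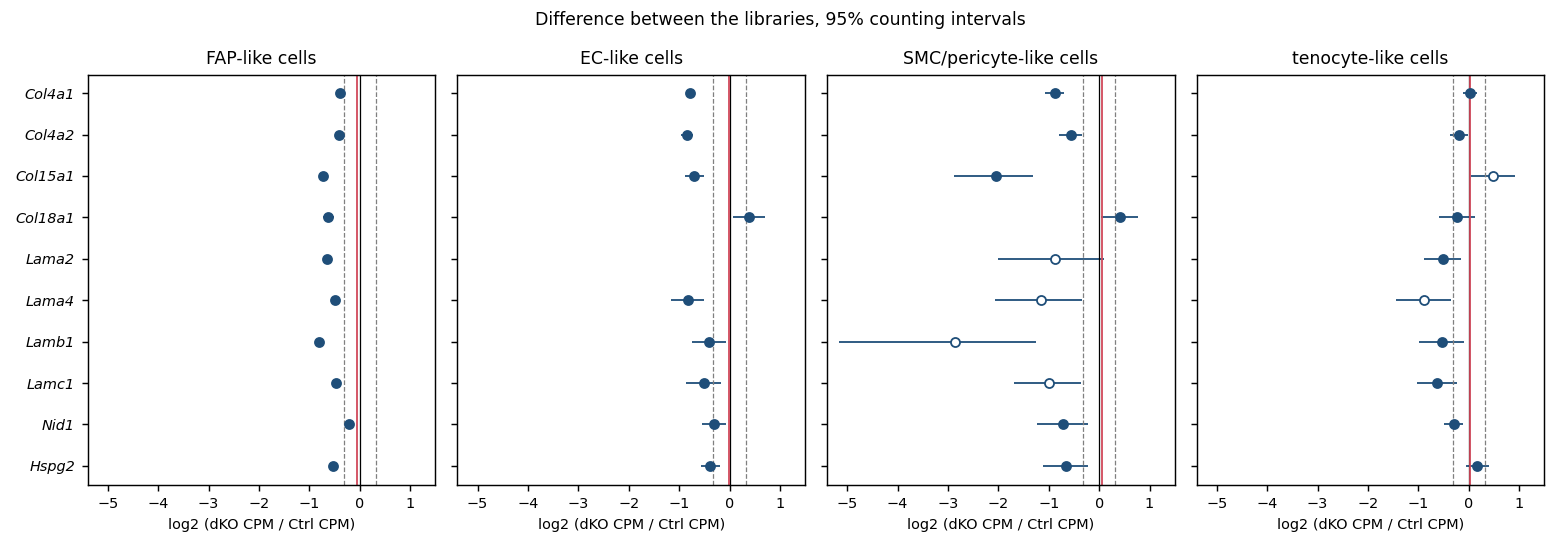
Log2 ratio of dKO to Ctrl CPM (horizontal axis) for each gene in 4 cell classes, with 95% counting intervals as bars, open points for genes with fewer than 200 UMIs over both libraries, dashed lines at the limits for a call and a red line at the median of all genes. Points with fewer than 50 UMIs are left out. All 10 genes lie left of 0 in FAP-like cells, Col18a1 lies to the right in EC-like and SMC/pericyte-like cells, and tenocyte-like cells hold points on both sides.

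The share of cells with a transcript moved the same way. With each cell thinned to 2000 UMIs, which kept 1074 Ctrl and 1133 dKO FAP-like cells and left out 65 and 54 shallower ones, Lamb1 was found in 36.0% of Ctrl and 22.7% of dKO cells (73.8% and 62.5% without thinning). Col15a1 was found in 43.1% and 31.7% (73.6% and 64.1% without thinning). Col4a1 was found in 75.5% and 71.2% (93.5% and 91.3% without thinning). In MO/MP-like cells the thinned shares were 0.290% and 0.381% for Lamb1, 0.943% and 0.952% for Col15a1 and 3.48% and 1.62% for Col4a1. Median depth before thinning was 12073 and 12080 UMIs in FAP-like cells and 8194 and 6951 UMIs in MO/MP-like cells. MO/MP-like cells had lower CPM in dKO for each of the 3 members counted there (Col4a1, Col4a2 and Lamc1), against 11.2% of all genes, and the source of these UMIs was not tested.

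Within FAP-like cells, the genes were spread unevenly over the 4 clusters. The cluster led by Inmt, C7 and Penk (550 Ctrl and 549 dKO cells) had the highest Ctrl levels of the 4 for Col4a1 (1900 CPM), Col4a2 (862 CPM), Col15a1 (656 CPM), Lama2 (407 CPM) and Hspg2 (565 CPM). In it 10 of 10 genes were called lower in dKO, against 12.8% of all genes there, from a log2 ratio of -0.45 (Nid1) to -0.95 (Col15a1). The sum of the 10 was 6646 CPM in Ctrl and 4376 CPM in dKO (-0.60).

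The cluster led by Postn, C1qtnf3 and Cthrc1 (337 and 318 cells) had 6 of 10 lower, against 10.4% of all genes, and a summed log2 ratio of -0.30. Lamb1 was lowest there (-0.85), and Col4a1 (-0.18), Col4a2 (-0.16), Col15a1 (-0.30) and Nid1 (-0.09) were not called. The cluster in which Cxcl5 and Il1rl1 stood high together with cell cycle genes (115 and 163 cells) had 7 of 10 lower, against 11.1% of all genes, and the 3 not called were Nid1 (334 and 340 CPM), Col4a2 (-0.24) and Hspg2 (-0.19). The cluster with Pi16 and Dpp4 (137 and 157 cells) had 4 of 8 lower, against 9.89%. Its summed difference was the smallest (-0.19), but Nid1 (-0.10) weighs most in that sum. Col15a1 (-0.88) and Col18a1 (-0.65) had too few UMIs there to be counted. This cluster also had the highest Nid1, at 1770 CPM in Ctrl and 1647 CPM in dKO, and the lowest Col15a1, at 79.4 and 43.3 CPM. Lamb1 was the one gene beside Lama2 called lower in all 4 clusters, with log2 ratios from -0.47 to -0.85.

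**Figure D5:**
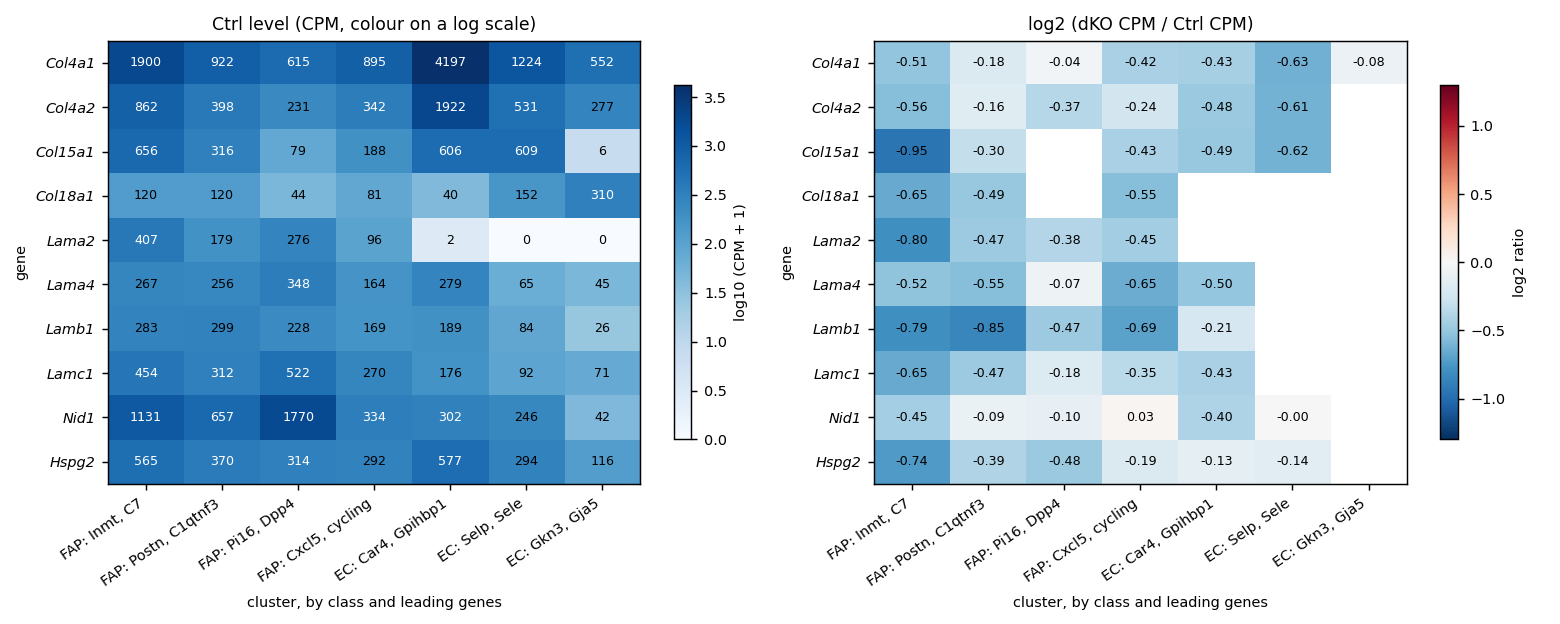
Ctrl level (left; CPM, coloured on a log scale) and log2 ratio of dKO to Ctrl (right) of each gene (rows) in the 4 FAP-like and 3 EC-like clusters (columns), named by leading genes; ratios are left blank below 200 UMIs over both libraries. The cluster led by Inmt and C7 has a ratio of -0.45 or below for all 10 genes, and Col18a1 is highest (310 CPM) in the EC-like cluster with Gkn3 and Gja5.

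In EC-like cells, 9 of the 10 genes had enough UMIs, of which 7 were called lower (15.3% of all 2857 genes were) and 1 higher (13.2% were). At 1.5-fold, Col4a1, Col4a2, Col15a1 and Lama4 were lower, against 4.8% of all genes, and 0 were higher, against 4.31%. The median log2 ratio was -0.51, against -0.01 over all genes. Summed, the 10 genes stood at 5991 CPM (5899 to 6085) and 3725 CPM (3598 to 3856), a log2 ratio of -0.69 (-0.74 to -0.63). Part of this moved with the makeup of the class: the cluster led by Car4 and Gpihbp1, which had the highest Col4a1 (4197 CPM in Ctrl and 3121 CPM in dKO), was 62.9% of EC-like cells in Ctrl and 54.2% in dKO. With the clusters weighted by their total UMIs in Ctrl, and so not by these shares of cells, the summed log2 ratio was -0.41. Lamb1 (-0.16) and Hspg2 (-0.14) were then no longer called.

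Within that cluster 6 of 8 genes were lower (14% of all genes there were) and the summed log2 ratio was -0.42. In the cluster led by Selp and Sele, 3 of 5 were lower (13.2% of all genes), Col4a1 (-0.63), Col4a2 (-0.61) and Col15a1 (-0.62), while Nid1 was at 246.1 and 246.0 CPM. In the cluster with Gkn3 and Gja5, where Col4a1 alone had enough UMIs, it was at 552 and 523 CPM (-0.08) and not called lower (8.89% of all genes there were). Col18a1 was highest in this last cluster, at 310 CPM (96 UMIs) in Ctrl and 352.5 CPM (62 UMIs) in dKO, and lowest in the cluster led by Car4, at 40.1 and 17.1 CPM (62 and 6 UMIs), so that its EC-like level depends on which cluster is counted most. Kdr, a receptor for VEGF, was at 736.5 CPM in Ctrl and 465 CPM in dKO EC-like cells, while the 11 EC markers summed to 10760 and 11001 CPM. The 11 SMC/pericyte markers summed to 894 CPM in Ctrl and 552 CPM in dKO EC-like cells, with 1 and 3 of them at 0. The 11 FAP markers summed to 253 and 257 CPM, with 1 and 2 at 0, and Dcn among them was at 39.9 and 96.4 CPM. The part of these cells in the EC-like difference was not tested.

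SMC/pericyte-like cells had 6 genes with enough UMIs, of which 5 were lower in dKO (15.6% of all 852 genes were) and Col18a1 was higher (22.4% were). The class was small in dKO and differed in its markers. Rgs5, Abcc9 and Kcnj8, which mark pericytes, were at 8525, 619 and 361 CPM in Ctrl and at 3676, 238 and 207 CPM in dKO. Notch3, of the same marker list, stood the other way, at 659.5 and 790.5 CPM. Acta2, a smooth muscle actin, was at 8366 and 12126 CPM and Myh11 at 3560 and 3335 CPM. The 11 EC markers summed to 2752 CPM in Ctrl and 1417 CPM in dKO, with 0 and 1 of them at 0. As a mean over cells, Nid1 (0.0054) and Hspg2 (0.014) did not stand lower, and with cells thinned Col4a2 was not called (-0.25). The part of pericytes and of EC transcripts in the difference of this class was not tested.

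Tenocyte-like cells had 8 genes with enough UMIs, of which 3 were lower, Lama2 (141.5 and 99.3 CPM), Lamb1 (101 and 69.96 CPM) and Lamc1 (134 and 86.9 CPM), against 9.59% of all genes, and 0 were higher, against 10.8%. These values depended on the processing. With cells thinned to 2000 UMIs, Lama2 stood the other way (0.58) and Lamc1 was no longer called (-0.18). At a clustering resolution of 1.2, Lamb1 had a log2 ratio of -2.56 in place of -0.54, Lama2 was no longer called (-0.16), and Col4a1 was past the limit for a higher call (0.499 in place of 0.02). The summed log2 ratio was -0.15 (-0.23 to -0.07), and 0.14 at that resolution. In MuSC-like cells, 3 genes had enough UMIs, of which Col18a1 was lower, against 24.4% of all genes there, 0 were higher, against 18.2%, and Col4a1 and Hspg2 were within the limit. The summed level was 637 CPM in Ctrl (605 to 670.5) against 481.5 CPM in dKO (428 to 539), a log2 ratio of -0.40, but -0.089 as a mean over cells. These 30 dKO cells also differed in marker sums: the 10 myocyte markers were at 2609 and 4460 CPM (0 and 2 of them at 0) and the 10 cell cycle markers at 892 and 433 CPM. The 11 FAP markers, which include Col1a1 and Col3a1, summed to 924 and 452 CPM (1 of them at 0 in each library). Pax7 was at 56.7 and 50.1 CPM, with overlapping intervals, and whether the cells differed in stage was not tested. The part of these marker differences in that of Col18a1 was not tested either.

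Other genes of the same matrix did not all take this course. The share of all genes called lower stood at 10.6% in FAP-like, 15.3% in EC-like, 9.59% in tenocyte-like and 24.4% in MuSC-like cells, and that called higher at 7.5%, 13.2%, 10.8% and 18.2%. In FAP-like cells the 5 collagen VI genes, which anchor basement membrane to the interstitium, were all called lower, from Col6a1 (1576 and 1210 CPM) to Col6a3 (1653 and 1015 CPM, -0.70). Of the fibrillar collagens, Col1a1 (6618 and 4753 CPM, -0.48) and Col3a1 (14588 and 11100 CPM, -0.39) were lower, and Col1a2 was just within the limit (-0.32). Of 7 other linkers, Nid2, which encodes nidogen-2, was lower (93.4 and 57.8 CPM, -0.69), 4 were within the limit and 2 were higher, of which Agrn had the highest ratio (8.27 and 10.9 CPM). Lamb2, the beta2 chain that can take the place of beta1, was at 150 and 156 CPM (0.06), and was not called. Of the other type IV chains, Col4a5 alone had enough UMIs and was within the limit (41.5 and 37.0 CPM).

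Of 12 genes that make and cross-link collagen, 2 were lower in FAP-like cells, beside 10.6% of all genes, with Pxdn lowest (124 and 84.7 CPM, -0.55), which encodes the peroxidase that forms the sulfilimine bond of collagen IV, and 10 were within the limit. Of 7 receptors, 2 were lower, with Itga1, a subunit of a collagen IV receptor, lowest (17.6 and 9.30 CPM, -0.92), and Sdc4 was higher (257 and 348 CPM, 0.44). EC-like cells, where 15.3% of all genes were lower, had 2 of 5 receptors lower, with Itga1 again lowest (180 and 109 CPM, -0.73), 3 of 7 assembly genes lower, with Plod1 lowest (131 and 80.3 CPM), and Sparc, a collagen-binding protein, lower (3857 and 2540 CPM, -0.60). Lamb2 was higher there, at 119 and 167.5 CPM (0.49). Tenocyte-like cells had 0 of 3 collagen VI and 0 of 3 fibrillar genes lower, and Col1a2 was higher (15696 and 21509 CPM). In MuSC-like cells, where 24.4% of all genes were lower, the 3 fibrillar genes were all lower, with Col1a2 at 590 and 113 CPM. The FAP marker Dcn was lower in these cells too, at 104 and 56.6 CPM, and the source of such UMIs was not tested. Of the Ctrl UMIs of Col1a1 there, 27.5% came from 1 cell. Of 5 receptors counted in these cells, 1 was lower, Dag1, which encodes the laminin receptor dystroglycan (635 and 355.5 CPM, -0.84), and 1 was higher, Itga7, which encodes a laminin-binding integrin subunit (139 and 197 CPM, 0.51).

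Across the 20 clusters with at least 30 cells in each library, taken in each library as 40 points, the gene whose pattern was most like that of Col4a1 among 9382 genes was Col4a2 (Pearson r = 0.97 on log2 CPM plus 1), followed by Dlc1 and Cxcl12. Nid1 was among the 3 genes most like Lamc1 (r = 0.89), which were led by Wasl. Sparc was among the 3 genes most like Lamb1 (r = 0.94) and Nid1 (r = 0.95), and Pxdn among those most like Hspg2 (r = 0.95). The genes most like the others were Igfbp7 for Col15a1 (r = 0.90), Parva for Col18a1 (r = 0.93), Evc for Lama2 (r = 0.96), Runx1t1 for Lama4 (r = 0.96), Ppic for Lamb1 (r = 0.94), Fstl1 for Nid1 (r = 0.95) and Cavin3 for Hspg2 (r = 0.96). Points of 1 library share their preparation and depth, and each r is a description.

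Promoter windows from 250 bases before to 50 bases after the start site from a table of RefSeq start sites (GRCm38.p6) were used for 8 of the 10 genes, with 9 windows in all, since Col18a1 has 2 listed start sites. Lama4 and Lamc1 were not analysed here. On either strand, CCAAT was found for 5 of the 8 genes (Col4a1, Col4a2, Col18a1, Lamb1 and Nid1) and in 37.4% of all 32851 windows. GGGCGG was found for 7 of the 8, all but Col15a1, and in 35.7% of all windows. AANATGG, which holds the core that Yy1 binds, was found for Col18a1 alone and in 16.1% of all windows. GC content ran from 50.3% (Lama2) and 52.3% (Col15a1) to 74.0% (Col4a1), with a median of 52.7% over all windows.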

How the data were processed

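The authors prepared droplet libraries on the 10x Chromium platform and deposited raw UMI counts per gene and cell. Per the labels, reads were processed with Cell Ranger 7.0.0 on mm10, whereas the file headers name software version 3.0.2. The tables held 4527 Ctrl and 3483 dKO barcodes, with 45556596 and 33815155 UMIs (medians 7697 and 7615 per cell), and 0 mitochondrially encoded genes.

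Cells under 500 genes were removed, 192 in Ctrl and 154 in dKO. Scrublet (scanpy 1.11.5) called 4 and 14 doublets by its own threshold. In its place the top 7.5% of cells by score were taken out of each library (325 and 250), and removing none was an alternative. The true share of doublets is unknown. Libraries were integrated and clustered in Seurat 5.3.0 (R 4.3.3) on 2000 variable genes without the 10 members, 40 dimensions and resolution 0.8. Clusters were named from 18 marker lists (157 of 161 genes found), given at least 3 enriched markers. Cycling clusters were pooled with the class whose markers they hold, a choice made after the clusters were seen. A cluster led by Sfrp5 and Lypd2 (24 and 12 cells) was left unnamed.

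UMIs were summed per class and library and divided by the class total. The scripts were tested on simulated data. The named genes were all 10 members, of each other list the highest and lowest ratio, the fibrillar genes, and the genes most like each member in pattern. The members and lists were chosen with earlier results of these data known. Gene positions are from GENCODE M21. Alternatives covered the cell filter, doublets, clustering, integration, scaling, thinning and leaving out the cell with most UMIs.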

Additional observations from a re-analysis of the deposited data

Results flagged for a closer look

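Col18a1 was singled out because it stood in opposite directions in different cell classes of the same 2 libraries. Its log2 ratio of dKO to Ctrl was 0.39 in EC-like and 0.41 in SMC/pericyte-like cells, and -0.63 in FAP-like and -2.39 in MuSC-like cells. The positive values turned to -0.13 in EC-like cells with clusters weighted as in Ctrl and to -0.10 in SMC/pericyte-like cells with no doublets removed. With 1 library per group, the difference between the classes was not tested.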

How the results depend on the processing

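No paired analysis was possible because each group has 1 library, and for the same reason no replicate was left out. Of 123 class values and counts under alternatives, 97 moved by less than their counting interval or 1.5 times, 26 moved by more and 1 of these changed sign. Of 389 values of single members, 343 stayed within their counting interval, 41 moved outside it and 5 changed sign for members called lower or higher. With these 5, 14 changed sign. The other 9 were for Col4a1, Col4a2, Nid1 and Hspg2 in tenocyte-like or MuSC-like cells, where these were not called. In FAP-like cells, the 9 members called lower were past the same limit under each of their 12 alternatives, and Nid1 under 0.

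The summed log2 ratio in FAP-like cells (-0.45) was -0.50 as a mean over cells, -0.40 when scaled to the median ratio of genes and -0.49 when thinned. In EC-like cells (-0.69) it was -0.52 as a mean over cells, and in SMC/pericyte-like cells (-0.74) -0.54. In tenocyte-like cells (-0.15) it was -0.24 with the 200-gene filter, 0.14 at resolution 1.2, -0.024 as a mean over cells and -0.23 when thinned. In MuSC-like cells (-0.40) it was -0.089 as a mean over cells and -0.033 when thinned. At 1.5-fold, 4 members were lower in FAP-like and 4 in EC-like cells. The 1 member higher in EC-like cells became 0 at 1.5-fold, with no doublets removed, as a mean over cells and with clusters weighted as in Ctrl. The FAP-like share difference (15.8 points) was 16.8 with the 200-gene filter, 16.5 with no doublets removed, 15.2 at resolution 1.2 and 20.3 when thinned. The EC-like one (-10.5) was -9.50 with no doublets removed and -15.1 when thinned.

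Among alternatives chosen after seeing the data, leaving out the cycling FAP-like cluster gave a summed log2 ratio of -0.42, and weighting clusters as in Ctrl gave -0.43 in FAP-like and -0.41 in EC-like cells. The 5 changes of sign of called members were Col18a1 in EC-like cells with clusters weighted as in Ctrl (-0.13) and in SMC/pericyte-like cells with no doublets removed (-0.10), Nid1 (0.0054) and Hspg2 (0.014) in SMC/pericyte-like cells as a mean over cells, and Lama2 in tenocyte-like cells when thinned (0.58). Beyond the weighting of clusters, the cause was not tested. Depth limits the small classes, such as MuSC-like and SMC/pericyte-like cells of dKO, with 30 and 38 cells.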
